A study of Homo sapiens with 42 samples.

Results

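The HOX cluster microRNAs are 5 genes that lie inside the 4 human HOX gene clusters: MIR10A and MIR196A1 in the HOXB cluster, MIR10B in the HOXD cluster, MIR196A2 in the HOXC cluster and MIR196B in the HOXA cluster. They were taken from a count table of 175946 annotated rows by gene symbol, keeping rows annotated as miRNA or precursor RNA of at most 500 bases, and all 5 of 5 were found. After overlapping rows were set aside, 85912 rows remained, 4187 of them miRNA.

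The study sequenced small RNA of cells in which RNA polymerase III subunits had been targeted, with and without end repair by Antarctic phosphatase and polynucleotide kinase (PNK). The groups used here are A4, A7, E4 and G8, labelled as THP-1, a human monocytic leukaemia line, and mock, labelled as HEK293T, a human embryonic kidney line, given 200 nM of a control antisense oligonucleotide (ASO). Each has 3 libraries without PNK and 3 with PNK. The series describes POLR3G and POLR3GL knockout in THP-1. The labels do not say which gene was targeted in A4, A7, E4 or G8, or whether each of these is 1 clone, nor do they give A4, A7, E4 or G8 any treatment, and the labels of the libraries do not say that replicates are separate cultures. Labels also name con (THP-1) and a POLR3G ASO (HEK293T), whose 12 samples were not analysed here, so no THP-1 control is compared. Each p-value reflects library-to-library spread, which may be technical.

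MicroRNAs are cut from hairpin transcripts, and a mature strand then guides Argonaute proteins to messenger RNAs that pair with its seed, the bases near its 5′ end. HOX genes encode transcription factors that set position along the body axis and, in blood, act in progenitor cells. The miR-10 and miR-196 families sit between HOX genes, are often transcribed with them and have HOX messenger RNAs among their known targets. MIR196B, beside HOXA9 and HOXA10, is known for high levels in acute leukaemias with a rearranged KMT2A gene, to which THP-1 belongs.

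The mature sequences are shown first because reads of a sequence that members share cannot be told apart by gene. They are given 5′ to 3′ from RefSeq (GRCh38.p14), with the seed, bases 2 to 8, in capitals. The 5p strands of MIR196A1 and MIR196A2 are the same 22 bases, and MIR196B has the same seed.
hsa-miR-196a-5p (MIR196A1 and MIR196A2): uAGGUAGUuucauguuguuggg
hsa-miR-196b-5p (MIR196B): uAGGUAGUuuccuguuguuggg
hsa-miR-10a-5p (MIR10A): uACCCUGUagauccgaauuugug
hsa-miR-10b-3p (MIR10B): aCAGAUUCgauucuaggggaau

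Counted from 1 at the 5′ end, miR-196b-5p differs from miR-196a-5p by the single substitution A12C. The seed of miR-10a-5p also occurs in the hairpin of MIR10B, where the stretch aligned with miR-10a-5p differs from it by U12A. The 2 hairpins below, 5′ to 3′, show the stretch each count row covers, in capitals, for the members whose row is not simply the 5p strand.
MIR10B hairpin: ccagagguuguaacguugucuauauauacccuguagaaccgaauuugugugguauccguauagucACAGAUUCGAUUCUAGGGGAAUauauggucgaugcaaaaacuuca
MIR196A2 hairpin: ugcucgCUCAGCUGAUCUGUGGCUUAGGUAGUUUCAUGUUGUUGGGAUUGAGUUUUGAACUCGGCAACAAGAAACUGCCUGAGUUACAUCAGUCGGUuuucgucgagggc

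In GRCh38 the MIR10A row is chr17:48579906-48579926 on the minus strand, under the 5p strand, in an intron of HOXB3 and an exon of an annotated HOXB4 transcript. The MIR196A1 row, chr17:48632533-48632553, is on the minus strand of the same cluster, in an intron of HOXB7, with HOXB-AS4 on the opposite strand. The MIR10B row is chr2:176150368-176150389 on the plus strand, under the 3p strand, in an intron of HOXD3 and 833 bp from HOXD4. The MIR196A2 row, chr12:53991744-53991834 on the plus strand, spans 91 bases of the hairpin in an intron of HOXC6, 1465 bp from HOXC10 and 3061 bp from HOXC9. The MIR196B row is chr7:27169528-27169549 on the minus strand, in an exon of an annotated HOXA9 transcript, 1042 bp from HOXA10 and opposite an exon of HOXA10-AS. Annotation is from GENCODE release 29.

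A row's interval does not show which strand of the hairpin its reads came from. The 91-base row of MIR196A2 and a deposited row over its 3p strand alone both hold 561 counts over the 30 libraries, and the MIR26A1 row, under miR-26a-1-3p, holds 596292 counts against 595581 in the MIR26A2 row under miR-26a-5p. The 5p and 3p strands are therefore not told apart here. Reads of the shared miR-196a-5p cannot be assigned to MIR196A1 or MIR196A2, and the text gives these genes apart and summed.

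A library's counts in the rows kept came to 9.96 to 13.6 (in units of 1e+06) without PNK. With PNK they came to 6.5 to 9.25 in the same units. The miRNA share of those counts was 12.6% to 24.9% without PNK in 13 of the 15 libraries, but 1.97% and 2% in G8 libraries 1 and 2, so the members' calls that rest on G8 are given with and without these 2. The labelled HEK293T identity of mock was checked with miRNA of blood cells. MIR142, a marker of blood-derived cells, was at 2597 ± 795 CPM (counts per 1e+06 kept counts after TMM scaling; mean ± SD, n = 3) in mock and at mean levels of 946 to 2501 CPM in the THP-1 groups, and MIR223, a myeloid marker, at 400 ± 49.2 CPM in mock and 224 to 440 in the THP-1 groups. Over the 6 markers the summed level was 5173 to 7358 CPM in mock, 5417 to 9645 in A4, A7 and E4, and 1010 to 6639 in G8. MIR150 was at 0 in mock, A7 and G8 and had 2 counts over the 15 libraries without PNK. Of the 5 markers tested, 0 differed between mock and the THP-1 mean, against 6.23% of all features. These values go against the kidney line named in the label. The group is therefore called "the libraries labelled mock", or mock, and its contrast with THP-1 is a contrast of labels, not of cell types.

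Without PNK the members spanned a wide range of levels. MIR196B had 53293 counts over the 15 libraries and held rank 46 to 75 among the miRNA rows of each library. MIR10A had 1507 counts, MIR196A1 734, MIR196A2 516 and MIR10B 225. All 5 passed the low-count filter without PNK. Levels between these genes are compared on counts of rows of 21 or 22 bases, apart from the 91-base row of MIR196A2.

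MIR196B, the HOXA member, stood at 405, 366 and 254 CPM in mock libraries 1 to 3. It was at 240, 231 and 360 CPM in A4, at 381, 430 and 363 in A7, and at 308, 292 and 367 in E4. In G8 it was at 31.5, 35.8 and 345 CPM. Mock overlapped A4, A7 and E4, and the low G8 values are those of the 2 libraries with a miRNA share near 2%.

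MIR196A2, the HOXC member, was at 1.67, 1.2 and 1.53 CPM in mock and at 0.299, 0.983 and 0.546 CPM in A4. It was at 5.03, 4.5 and 4.68 CPM in A7 and at 6.09, 5.11 and 4.33 in E4. In G8 it was at 1.26, 0.914 and 4.51 CPM. A4 lay below mock and mock below A7 and E4, with no overlap at either step, while G8 library 3 lay among A7 and E4. The A4 values rest on 4, 11 and 6 counts. The share of all features that separate these groups in the same way was not counted, here or for the members below.

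MIR196A1, the HOXB copy of the same mature sequence, was at 3.34, 2.96 and 2.2 CPM in mock and at 1.64, 1.7 and 2.46 CPM in A4. It was at 6.24, 6.42 and 5.83 CPM in A7, at 7.07, 7.23 and 5.4 in E4, and at 0.837, 1.65 and 5.86 in G8. A7 and E4 again lay above mock, and here A4 and mock overlapped.

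MIR10A, the other HOXB member, was at 12.2, 9.12 and 9.27 CPM in mock and at 9.19, 11.2 and 10.7 in A4. It was at 7.65, 6.05 and 5.97 CPM in A7, at 9.35, 12.2 and 9.29 in E4, and at 6.28, 4.57 and 8.35 in G8. The A7 and G8 libraries all lay below every mock library. MIR10B, the HOXD member, lay between 0.959 and 2.01 CPM in all 15 libraries, with 11 to 18 counts each, and each THP-1 group overlapped mock.

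**Figure D1:**
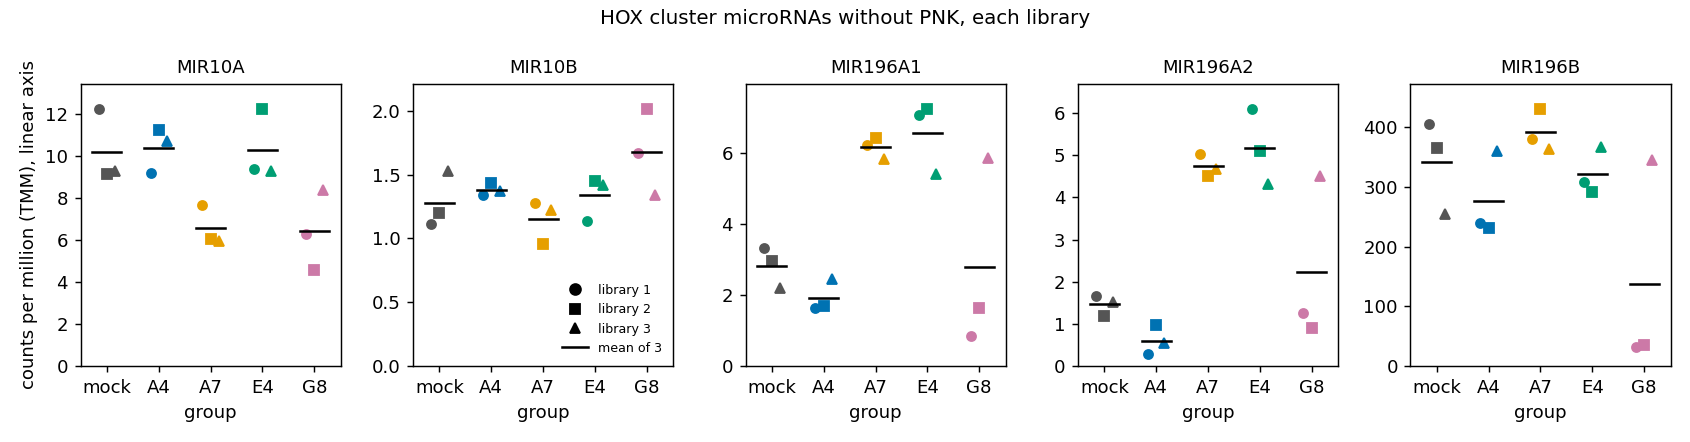
Level of each HOX cluster microRNA in each library without PNK, in CPM on a linear axis from 0, by group, with the mean of 3 libraries as a line. MIR196A1 and MIR196A2 are higher in A7 and E4 than in mock and A4, while G8 library 3 lies apart from G8 libraries 1 and 2 for MIR196A1, MIR196A2 and MIR196B.

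Mock was compared first with the mean of the THP-1 groups without PNK. None of the 5 members differed in edgeR's quasi-likelihood test (0 of 5 called, against 6.23% of the 1814 features tested at a Benjamini-Hochberg adjusted p under 0.05). No member had an unadjusted p under 0.05, and DESeq2 called 0. The log2 differences (mock minus THP-1) were -0.73 for MIR196A2 (SE 0.389, edgeR adjusted p = 0.393), -0.45 for MIR196A1 (SE 0.374), 0.38 for MIR196B (SE 0.527), 0.32 for MIR10A (SE 0.201) and -0.10 for MIR10B (SE 0.207). Leaving out G8 libraries 1 and 2 gave 2 calls: MIR196A1 (log2 -0.81, edgeR adjusted p = 0.0187) and MIR196A2 (log2 -1.07, edgeR adjusted p = 0.0225), both lower in mock. MIR196B turned to -0.06 there.

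The THP-1 groups went different ways from mock, so each was compared on its own. The same 3 mock libraries enter each of these comparisons. MIR196A2 was higher in E4 than in mock by 1.82 on the log2 scale (SE 0.458, 3.53-fold, edgeR adjusted p = 0.0426), the only member called there (1 of 5, against 4.47% of features). This call ended with library totals (edgeR adjusted p = 0.124), with miRNA factors (0.123), with every deposited row counted (0.052), with the replicate number as a block (0.0659), and when any library of mock, A4, A7 or E4 was left out (0.0599 to 0.153), with a log2 difference of 1.73 to 1.98 throughout.

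In A7 against mock no member passed (0 of 5, against 0.386% of features by edgeR), though 3 had an unadjusted p under 0.05 and DESeq2 called 1, MIR196A2. The log2 differences were 1.69 for MIR196A2 (SE 0.457, edgeR adjusted p = 0.144), 1.12 for MIR196A1 (SE 0.458, edgeR adjusted p = 0.38) and -0.64 for MIR10A (SE 0.254, edgeR adjusted p = 0.364). Same-numbered A7 and mock libraries deviated together, while those of mock deviated in opposite directions from A4, E4 and G8. Only same-numbered libraries were correlated, so these values cannot show a pairing. The labels give no such pairing. A replicate block on the 6 A7 and mock libraries alone, added after seeing the data, called all 3: MIR196A2 at 1.73 (edgeR adjusted p = 0.00228), MIR196A1 at 1.17 (0.00691) and MIR10A lower (0.0476). That fit called 226 features in all, against 7 in the fit of all groups. The block was fitted because these libraries deviated together in the same data, so its p-values carry that choice. Without the block the same 6 libraries gave MIR196A2 and MIR196A1 (edgeR adjusted p = 0.024 and 0.0408). Without G8 libraries 1 and 2 MIR196A2 (0.00468) and MIR196A1 (0.00856) passed in the fit of all groups.

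Neither A4 nor G8 had a member that passed against mock. In A4 this was 0 of 5, against 1.43% of features by edgeR, with 1 member at an unadjusted p under 0.05 and 0 by DESeq2. MIR196A2 was lower there by -1.27 (SE 0.551, edgeR adjusted p = 0.271), and its log2 difference was -1.19 without G8 libraries 1 and 2. Over all features, that setting gave A4 against mock the most calls of any alternative. In G8 it was 0 of 5, against 27.6% of features by edgeR, with 1 member at an unadjusted p under 0.05 (MIR10A, log2 -0.66, edgeR adjusted p = 0.0715) and 0 by DESeq2. Without G8 libraries 1 and 2, which leaves 1 G8 library whose spread is taken from the other groups, MIR196A2 (log2 1.81, edgeR adjusted p = 0.0167) and MIR196A1 (log2 1.23, edgeR adjusted p = 0.0244) passed, both higher in G8.

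**Figure D2:**
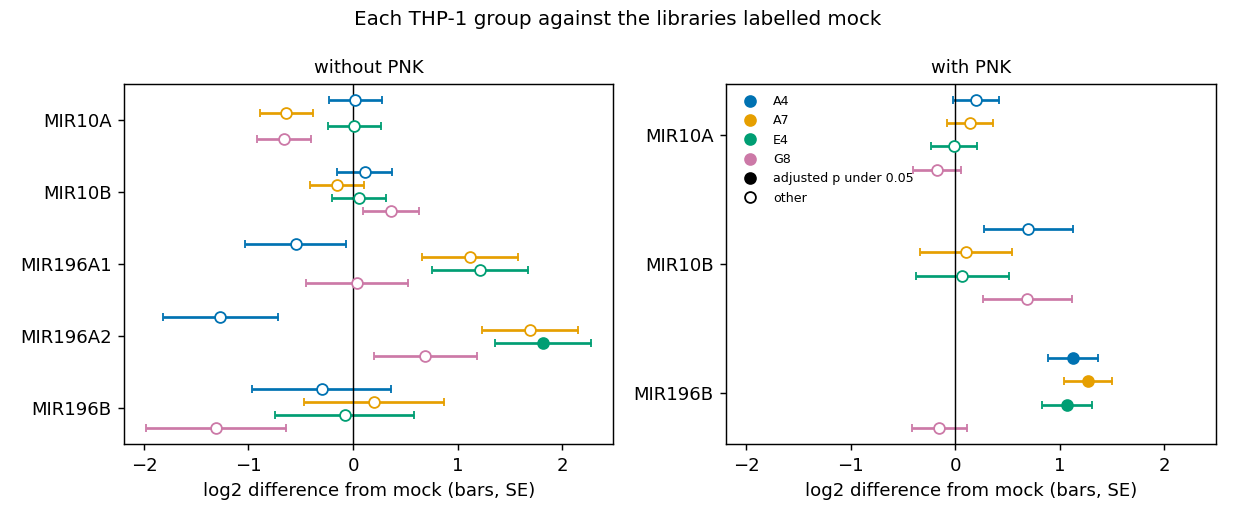
Log2 difference of each THP-1 group from mock for the members tested, without PNK (left) and with PNK (right), with the standard error as a bar. Filled points have a Benjamini-Hochberg adjusted p under 0.05 in edgeR: MIR196A2 in E4 without PNK, and MIR196B in A4, A7 and E4 with PNK.

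Among the THP-1 groups themselves, MIR196A2 was the member that differed without PNK (1 of 5, against 32.3% of the 1774 features tested). Its test across A4, A7, E4 and G8 gave an edgeR adjusted p of 0.0135, and those of MIR196A1 (0.0546) and MIR10A (0.0695) missed the threshold. Over 20 alternatives MIR196A2 kept an adjusted p between 3.21e-07 and 0.0415. A4 against A7 gave a log2 difference of -2.95, with A4 7.71-fold lower (SE 0.592, edgeR adjusted p = 0.0171, against 11.6% of features called). A4 was lower than E4 by 8.36-fold (edgeR adjusted p = 0.0427, against 1.01%) and lower than G8 by 3.63-fold (edgeR adjusted p = 0.0458, against 23.7%). The A4 to A7 call ended without A4 library 1 (edgeR adjusted p = 0.0729) or 2 (0.06) or A7 library 1 (0.0679) or 2 (0.0611). The A4 to E4 call ended without any library of A4, A7 or E4 (0.074 to 0.187), and the A4 to G8 call without A4 library 1 or 3, any A7 or E4 library, or G8 library 3 (0.0576 to 0.221, log2 -0.72 without G8 library 3). Without G8 libraries 1 and 2 the A4 to G8 difference of MIR196A2 was -2.99 (edgeR adjusted p = 0.00229). Library totals also ended the calls of A4 against E4 (0.082) and G8 (0.146). So did the replicate block over all 12 libraries (0.0856 and 0.0813). Same-numbered A4 and E4 libraries deviated together, though the labels give no such pairing. The block on these 6 alone, added after seeing the data, called MIR196A2 (edgeR adjusted p = 2.28e-07) and MIR196A1 (5.64e-06). It called 600 features in all, against 18 in the fit of all 12 libraries. The same block on the A4 and G8 libraries alone called 0 features, against 421 in the fit of all 12. A7 and E4 did not separate at any member (0 of 5, against 0.113% of features, 1 unadjusted p under 0.05, 0 by DESeq2). No member was called between A7 and G8 (0 of 5, against 26.7%, 0 unadjusted, 0 by DESeq2) or E4 and G8 (0 of 5, against 21.9%, 3 unadjusted, 0 by DESeq2).

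Since MIR196A1 and MIR196A2 share their mature 5p sequence, their counts were also summed before the test. The sum differed among the THP-1 groups (edgeR adjusted p = 0.028). For A4 against A7 its log2 difference was -2.09 (edgeR adjusted p = 0.0324), and for A4 against E4 it was -2.18 and missed the threshold (0.0784). In E4 against mock the sum was 1.45 higher and was not called (edgeR adjusted p = 0.0797). The MIR196A2 row held 23.4 ± 11.6% of the summed counts in A4, 34.4 ± 6.16% in mock, 43.5 ± 1.95% in A7, 44.1 ± 2.49% in E4 and 46.4 ± 12.4% in G8 (n = 3 each). In the A4 libraries it was 4 of 26, 11 of 30 and 6 of 33 counts, so its share there rests on few counts.

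The level of miR-196a relative to MIR196B needs no scaling between libraries. The MIR196A1 and MIR196A2 counts together came to 12.4, 11.4 and 14.7 per 1000 MIR196B counts in mock and to 8.11, 11.6 and 8.33 in A4. They came to 29.6, 25.4 and 29 in A7, to 42.7, 42.3 and 26.5 in E4, and to 66.4, 71.4 and 30.1 in G8. Every library of A7, E4 and G8 lay above every library of mock and A4, and mock and A4 overlapped. G8 libraries 1 and 2, where these ratios rest on 15 and 14 miR-196a counts, did not fall with their miRNA share but were the highest of all. Mock against the 12 THP-1 libraries together gave a 2.08-fold lower ratio in mock, which did not pass (exact permutation test on log2 ratios over 455 splits, two-sided, p = 0.105, adjusted over 3 ratios 0.284). The permutation takes single libraries as exchangeable, though the 12 form 4 groups with unlike ratios, so its p does not account for that grouping.

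**Figure D3:**
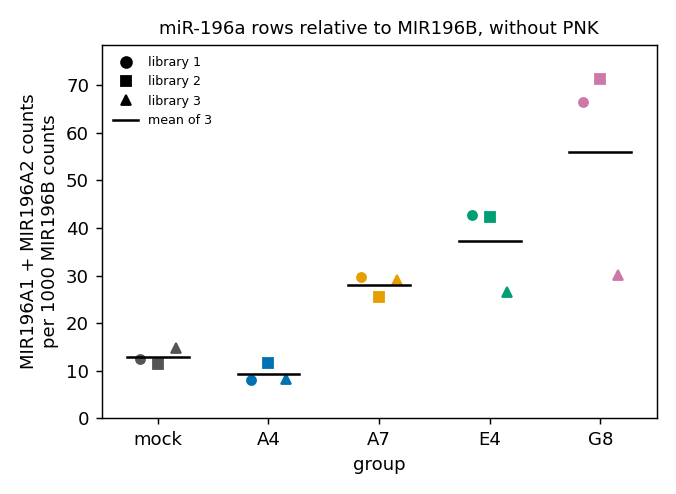
Counts of MIR196A1 and MIR196A2 together per 1000 counts of MIR196B in each library without PNK, on a linear axis from 0, with the mean of 3 libraries as a line. The 6 libraries of mock and A4 lie between 8.11 and 14.7, and the 9 of A7, E4 and G8 between 25.4 and 71.4.

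Other miRNA moved beside these rows. Markers of fibroblasts and muscle-type stromal cells, including MIR143 and MIR145, summed to 51.8 to 65.9 CPM in A4, 114 to 166 in mock, 167 to 221 in A7, 201 to 214 in E4 and 11.4 to 222 in G8. In this sum A4 lay below mock and mock below A7 and E4, as for MIR196A2. The step from mock to A7 and E4 was mainly that of MIR143, at means of 29.6, 87.9 and 91.8 CPM. MIR199A1 (52.5, 50.1 and 54.6), MIR199A2 (50.8, 50.6 and 53.2) and MIR145 (5.99, 5.83 and 7.46) differed little by comparison. MIR214, not tested, was at 0.537, 0.26 and 0.163. MIR199A1 and MIR199A2 held nearly the same counts (7349 and 7324). Of this list 4 features were tested and 0 called in any comparison without PNK, where 0.113% to 32.3% of all features were called. None of its genes was at 0 in every library of a group. Epithelial markers, of which 7 of 11 were tested, summed to 173 to 243 CPM in mock, 173 to 323 in A4, A7 and E4, and 25.1 to 248 in G8, with MIR203A at 0 in mock, A7, E4 and G8 and MIR205 at 0 in mock, A4, A7 and E4. One of them, MIR200C, was called without PNK. It differed among the THP-1 groups (edgeR adjusted p = 0.0105, 1 of 7 tested, against 32.3% of all features). It was higher in A7 (log2 2.70, edgeR adjusted p = 0.00628) and in E4 (2.60, 0.0143) than in G8, against 26.7% and 21.9% of features. It was lower in G8 than in mock (log2 -1.58, edgeR adjusted p = 0.0161), against 27.6%. MIR200C was at 9.34 to 12.6 CPM in A4, 14.5 to 17.2 in mock, 28.6 to 35.6 in A7, 28.3 to 31.4 in E4 and 3.35, 2.01 and 9.79 in G8, so A4 again lay below mock and mock below A7 and E4. The means of MIR200A, MIR200B and MIR429 had that order too. MIR182, MIR183 and MIR96 did not, being highest in A4 (means of 136, 60.1 and 33.6 CPM). They were at 116, 40.1 and 25.7 in mock, 77.9, 35.3 and 17.1 in A7 and 97.2, 48.4 and 18.1 in E4. The part of these cell type markers in the miR-196a result was not tested. Across the 15 libraries without PNK, the miRNA most like MIR196A1 of 356 tested were MIR143 (Pearson r = 0.97 of log2 CPM), MIR222 (0.96) and MIR151A (0.95), and those most like MIR196A2 were MIR584 (0.93), MIR615 (0.88) and MIR143 (0.88). MIR196B was most like MIR9-2, MIR9-1 and MIR16-2 (0.99 each). MIR10A was most like MIR1976 (0.88), MIR3909 (0.80) and MIR3615 (0.72), and MIR10B like MIR3653 (0.73), MIR1908 (0.67) and MIR1249 (0.55). All these values share the same libraries, including the 2 G8 libraries of low miRNA share, and describe them only. Between members, MIR196A1 and MIR196A2 correlated at 0.86 and MIR10B and MIR196B at -0.79.

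The surroundings of the members gave little other signal. Within 100 kb of a member lay 3 other miRNA rows. MIR615, 42116 bp from MIR196A2 in the HOXC cluster, had 303 counts without PNK. It differed among the THP-1 groups (edgeR adjusted p = 0.00234), with 0.546 CPM in A4, 2.73 in A7, 3.31 in E4, 0.764 in G8 and 0.984 in mock (means of 3), so A7 and E4 were again higher than A4. MIR7704, near MIR10B, had 1 count without PNK and MIR3185, near MIR196A1, had 0. The 67 long non-coding RNA rows of these windows held 267 counts without PNK, and none of them could be tested there. With PNK 5 of them were tested, lnc-EVX2-8 and 4 rows of the HOXA cluster. Of these 0 differed between mock and the THP-1 mean or among the THP-1 groups (against 5.92% and 22% of all features). The nearest, lnc-HOXA10-1, lies 84 bp from MIR196B and had mean levels of 8.81 to 12.6 CPM over the 5 groups with PNK. Of the non-coding RNA genes named for the HOX clusters, HOTTIP had 71 counts without PNK, HOXA11-AS 38 in the larger of its rows and HOTAIR 1.

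The relatives of miR-10 outside the HOX clusters carry similar sequences and were listed beside MIR10A and MIR10B. Without PNK 4 of 6 were tested, and 0 differed between mock and the THP-1 mean (against 6.23% of all features). Among the THP-1 groups 3 differed, against 32.3% of all features. Those were MIR99A, at 6.67 ± 0.868 CPM in A7 against 1.83 ± 0.568 in A4 (test across groups, edgeR adjusted p = 0.00609), MIR125A (0.0476) and MIR100 (0.0362). MIR125A was at 117, 154 and 345 CPM in G8 libraries 1 to 3, against means of 418 to 547 in the other THP-1 groups, so the first 2 are the G8 libraries of low miRNA share. MIR125B1 and MIR125B2 had 12 and 17 counts and were not tested. With PNK 1 of the 3 tested, MIR125A, was lower in mock than the THP-1 mean (log2 -1.37, edgeR adjusted p = 0.0105, against 5.92% of all features called).

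With PNK the counts were few. MIR196B had 643 counts over the 15 libraries, MIR10A 471, MIR10B 187, MIR196A2 45 and MIR196A1 44, and the miRNA share of a library was 0.155% to 0.928%. MIR196A1 and MIR196A2, at 1 to 8 and 1 to 7 counts a library, did not pass the filter within this arm, so 3 members were tested against mock and among the groups.

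MIR196B separated the groups here. It was at 4.06, 3.75 and 2.54 CPM in mock and at 2.76, 3.65 and 2.92 in G8. It was at 7.33, 6.1 and 9.29 CPM in A4, at 10.1, 6.45 and 8.51 in A7, and at 7.26, 6.62 and 7.9 in E4. All 9 libraries of A4, A7 and E4 lay above all 6 of mock and G8, and mock and G8 overlapped. The share of all features split in this way was not counted.

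Against the THP-1 mean MIR196B was lower in mock by 0.83 on the log2 scale (SE 0.195, 1.78-fold, edgeR adjusted p = 0.0178; 1 of 3 members, against 5.92% of the 9091 features). This call ended with library totals (log2 -0.49, edgeR adjusted p = 0.116), with miRNA factors (-0.29, 0.414), and without mock library 2 (0.0705) or 3 (0.139). By group, MIR196B was higher than mock in A4 by 1.13 (SE 0.237, edgeR adjusted p = 0.00489; 1 of 3, against 11.3% of features). It was higher in A7 by 1.27 (SE 0.232, edgeR adjusted p = 0.00484; 1 of 3, against 4.95%) and in E4 by 1.07 (SE 0.235, edgeR adjusted p = 0.00879; 1 of 3, against 7.81%). G8 did not differ from mock at any member (0 of 3, against 5.54%; MIR196B log2 -0.15, edgeR adjusted p = 0.806; 0 unadjusted p under 0.05, 0 by DESeq2). With miRNA factors all 3 calls of MIR196B ended: A4 at 0.39 (edgeR adjusted p = 0.35), A7 at 0.42 (0.299) and E4 at 0.20 (0.626). Those factors, taken from the miRNA rows alone, put the median of all features at -0.74, -0.85 and -0.90 in these comparisons. Library totals ended the A4 (edgeR adjusted p = 0.0831) and E4 (0.0616) calls, as did leaving out mock library 3 for E4 (0.0513). The mock libraries are the same 3 in each comparison.

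Among the THP-1 groups with PNK MIR196B differed (edgeR adjusted p = 0.00312; 1 of 3, against 22% of the 8530 features). It was higher than G8 in A4 by 1.29 (edgeR adjusted p = 0.00258, against 14.9% of features), in A7 by 1.44 (0.00223, against 8.11%) and in E4 by 1.23 (0.00582, against 10.9%). With miRNA factors all of these calls ended: the test across the groups gave an edgeR adjusted p of 0.923, and the differences from G8 were 0.24 in A4 (0.617), 0.16 in A7 (0.73) and 0.02 in E4 (0.974). Without G8 libraries 1 and 2 the test across the groups passed (edgeR adjusted p = 0.0355), as did A4 (log2 1.39, edgeR adjusted p = 0.0356) and A7 (1.56, 0.0327) against the G8 library left, while E4 did not (1.35, 0.0528). Between A4, A7 and E4 no member differed (0 of 3 in each pair, against 13.6% for A4 and A7, 9.46% for A4 and E4 and 0.0938% for A7 and E4; 0 unadjusted p under 0.05 and 0 by DESeq2). MIR10A lay between 3.03 and 5.51 CPM and MIR10B between 0.98 and 3.46 over the 15 libraries, each THP-1 group overlapping mock, and neither was called with TMM scaling. With miRNA factors MIR10B was called among the THP-1 groups (edgeR adjusted p = 0.00416) and MIR10A was lower in E4 than in mock (log2 -0.90, edgeR adjusted p = 0.0445), at the median of all features there. Both were then also lower in A7 and E4 than in G8 (edgeR adjusted p = 0.00308 to 0.0384), where the median of all features was -1.25 and -1.21.

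**Figure D4:**
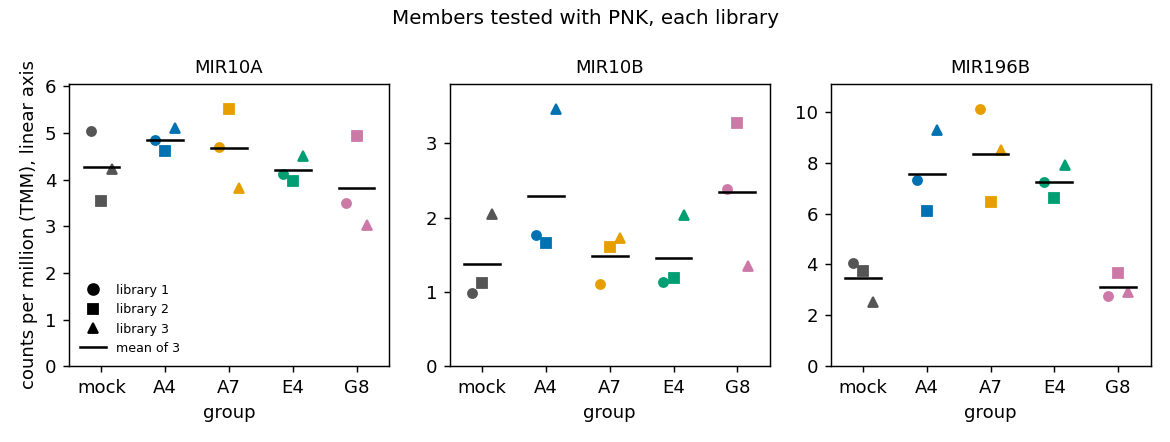
Level of the 3 members tested with PNK in each library, in CPM on a linear axis from 0, by group, with the mean of 3 libraries as a line. For MIR196B the 9 libraries of A4, A7 and E4, at 6.1 to 10.1, lie above the 6 of mock and G8, at 2.54 to 4.06.

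The miRNA share of the libraries moved with these values. With PNK it was 0.351% to 0.388% in mock and 0.155% to 0.448% in G8, against 0.367% to 0.568% in A4, 0.596% to 0.928% in A7 and 0.608% to 0.675% in E4. The blood cell markers were also lower in mock, with 3 of the 5 tested called lower than the THP-1 mean, against 5.92% of all features called in either direction. Their median log2 difference was -1.01, against 0.01 over all features. Their summed level was 76.4 to 79.1 CPM in mock, 161 to 505 in A4, A7 and E4, and 38.9 to 121 in G8. As CPM of the miRNA counts alone, MIR196B was at 1124, 1243 and 920 in mock and between 998 and 1506 in A4, A7 and E4, so the groups overlapped on that scale. The part of the miRNA share in the MIR196B result was not tested. Relative to MIR10A, MIR196B was 1.76-fold lower in mock than in the 12 THP-1 libraries (exact permutation test, two-sided, p = 0.044, adjusted over 3 ratios 0.132), which did not pass after adjustment. That test too took single libraries as exchangeable, without regard to the THP-1 groups.

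PNK lets RNA with blocked ends enter a library, while most mature miRNA need no such repair. All 5 members were called lower with PNK over the 5 groups with TMM scaling (5 of 5, against 94.3% of the 11173 features; DESeq2 called 4 and gave MIR196B no adjusted p), a background at which the count says nothing of the members. The median feature there was 3.59 log2 units higher with PNK, and the directions depend on the scaling. The log2 difference (with minus without PNK) of MIR196B was -9.01 (SE 0.251), and it was also below 0 under library totals and miRNA factors. The values were -4.27 for MIR10A, -6.42 for MIR196A1, -5.69 for MIR196A2 and -2.89 for MIR10B, but all of these turned higher with miRNA factors, and MIR10B also with library totals.

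Ratios within a library avoid that choice. Without PNK there were 20.7 to 71.1 MIR196B counts per MIR10A count in 13 libraries, and 5.02 and 7.84 in G8 libraries 1 and 2. With PNK the ratio was 0.6 to 2.23. The ratio fell in every group, with no overlap between the 15 libraries of each arm, by 22.8-fold on average (log2 -4.51; permutation test with 100000 resamples, two-sided, p = 2e-05, the smallest these can give, and 2e-05 adjusted over 3 ratios). MIR10A relative to MIR10B was 2.27 to 11 without PNK and 1.46 to 5.14 with PNK, 2.43-fold lower on average (p = 2e-05, permutation test, the same smallest value). The miR-196a rows relative to MIR196B went the other way, from 8.11 to 71.4 per 1000 without PNK to 40 to 250 with it (5.93-fold higher, p = 2e-05, permutation test), on 2 to 11 miR-196a counts a library with PNK. These permutations shuffled single libraries between the arms, without regard to group or library number. The members did not change by a common factor.

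**Figure D5:**
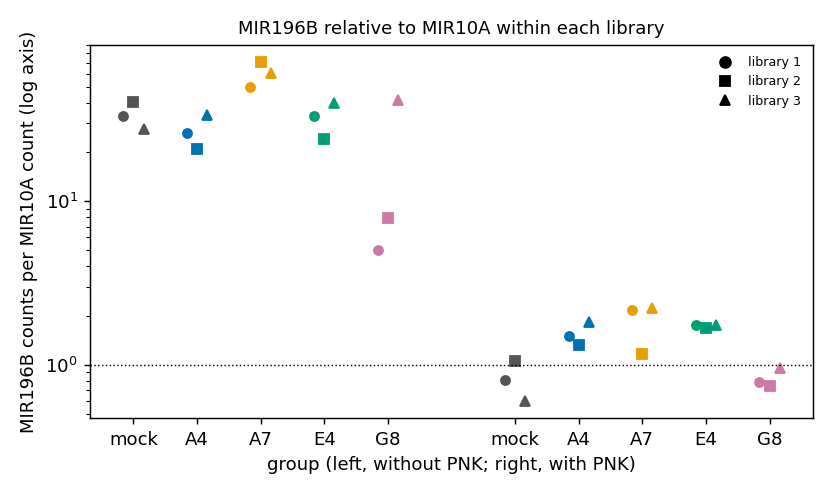
MIR196B counts per MIR10A count in each library on a log axis, by group, without PNK on the left and with PNK on the right; the dotted line marks equal counts. All 15 ratios without PNK, 5.02 to 71.1, lie above all 15 with PNK, 0.6 to 2.23.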

How the data were processed

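Per the labels' protocols, which describe the extraction for THP-1, the mirVana PARIS kit was used to enrich small RNA, followed by Antarctic phosphatase and PNK or no treatment and NEBNext Small RNA libraries. Per the submitters' processing notes, the tools were Trim Galore, FastQC, Bowtie2 2.3.5.1, SAMtools 1.9, deepTools 3.2.1 and bedtools 2.28.0, with genome build GRCh38. The authors deposited raw read counts per annotated feature, with no normalization. Their treatment of strand, overlaps and multiple alignments was not given in the sources. On the values, rows on the opposite strand that contain a member hold at least its count (MIR10A 1978, its opposite rows 2062 and 2068), so strand is ignored and a member's row can hold reads of either strand. The table covers 30 of 42 samples.

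Rows that overlap were reduced to 85912, small RNAs of at most 6000 bases first. Tests used the quasi-likelihood method of edgeR 4.0.16 (R 4.3.3, TMM factors, filterByExpr with a minimum of 10 counts, Benjamini-Hochberg over all features, threshold 0.05), over 15 libraries of an arm against mock, 12 among the THP-1 groups and 30 between arms. CPM use TMM factors, and correlations log2 CPM with a prior count of 2. Ratios were tested by permutation of single libraries, without regard to groups within a side, with SciPy 1.17.1. DESeq2 1.42.0 was an alternative, beside other scalings, filters, rows, left-out libraries and the replicate block. Tested on simulated data for mock against the THP-1 mean, the fit recovered 34.7% of 2-fold and 92.9% of 4-fold changes without PNK (1774 features), and 53.6% and 87% with PNK (8627 features). Precision follows the counts, from 1 in the shallowest member and library to 5829 in the deepest. Without PNK, same-numbered libraries deviated together in A7 and mock (residual correlations 0.16, 0.42 and 0.50). So they did in A4 and E4 (0.41, 0.52 and 0.74) and in A4 and G8 (0.47, 0.11 and 0.44). They deviated in opposite directions in A4 and mock (-0.52, -0.42 and -0.77), and likewise in E4 and mock (-0.30, -0.43 and -0.68). The same held in G8 and mock (-0.30, -0.21 and -0.45). Only same-numbered libraries were correlated, and the block on single pairs of groups was fitted to pairs that deviated together. Neither can therefore show a pairing, and the labels give none.

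The members and lists were chosen with earlier results of these data known. Named besides the members are miRNA rows within 100 kb, tested long non-coding rows there, the 3 miRNA most like each member, and the listed marker and miR-10 genes. G8 libraries 1 and 2 were left out in an alternative because of their miRNA share.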

Additional observations from a re-analysis of the deposited data

Results flagged for a closer look

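MIR196A2 differed among A4, A7, E4 and G8 without PNK, in the test of the group differences themselves (edgeR adjusted p = 0.0135). MIR196B differed among the same groups with PNK (edgeR adjusted p = 0.00312), a call that ended with miRNA factors (edgeR adjusted p = 0.923). No group has more than 3 libraries, so single libraries were not tested as outliers.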

How the results depend on the processing

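MIR196A2 among the THP-1 groups without PNK passed in all 20 alternatives run. Of 1005 values of single members under alternatives, 881 kept direction and side of the threshold. Values that turned sign, as log2 differences, were: mock against the THP-1 mean without PNK, MIR10A -0.14 (miRNA factors) and MIR196B -0.06 (without G8 libraries 1 and 2); with miRNA factors without PNK, MIR10A 0.97 (G8 against mock), -0.55 (A4 against G8) and -0.93 (E4 against G8). In mock against the THP-1 mean with PNK, MIR10A (-0.04) went to 0.30 with library totals and 0.49 with miRNA factors, to 0.05 when G8 libraries 1 and 2 were dropped, and ranged from -0.17 to 0.09 leaving out 1 library, with 0.01 for G8 library 2 and 0.09 for mock library 2. MIR10B went to 0.13 with miRNA factors. With PNK against without, MIR10B went to 0.35 with library totals, and with miRNA factors MIR196A2 to 1.74, MIR10A to 3.22, MIR196A1 to 1.05 and MIR10B to 4.54. The cause was not tested.

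Counts of members called moved as follows without PNK. Calls over all features moved too and are given at the end of this section. Mock against the mean (0) gave 2 without G8 libraries 1 and 2, and 0 to 1 leaving out 1 library. A4 against mock (0) gave 1 without G8 libraries 1 and 2, and 0 to 1 leaving out 1 library. A7 against mock (0) gave 1 with DESeq2, 2 without G8 libraries 1 and 2, 0 to 2 leaving out 1 library, and, added after seeing the data, 3 with the replicate block on 6 libraries and 2 on these with no block. E4 against mock (1) gave 0 with library totals, miRNA factors, every deposited row and the replicate block, 2 without G8 libraries 1 and 2, and 0 to 2 leaving out 1 library. G8 against mock (0) gave 1 with library totals, 3 with miRNA factors, 2 without G8 libraries 1 and 2, and 0 to 3 leaving out 1 library. The test among THP-1 groups (1) gave 3 with miRNA factors, DESeq2 and without G8 libraries 1 and 2, 2 with no filter and with every deposited row, and 1 to 4 leaving out 1 library.

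With PNK, mock against the mean (1) gave 0 with library totals and miRNA factors and 0 to 1 leaving out 1 library, A4 against mock 0 with library totals and miRNA factors, A7 against mock 0 with miRNA factors, and E4 against mock 0 with library totals and 0 to 1 leaving out 1 library. With miRNA factors MIR196B itself was called in no comparison it had passed within this arm (edgeR adjusted p = 0.299 to 0.974). The replicate block changed no other count. Over all features, calls for mock against the mean ranged from 3 (miRNA factors) to 525 (without G8 library 3) around 113 without PNK, and from 175 (without mock library 3) to 2721 (every deposited row) around 538 with PNK. For A7 against mock without PNK such calls ranged from 0 (library totals) to 226 (replicate block on 6 libraries) around 7. Among the THP-1 groups without PNK the range was 249 (without A7 library 1) to 1845 (every deposited row) around 573. Calls for A4 and E4 against mock without PNK were highest, and for G8 lowest, without G8 libraries 1 and 2. Against mock with PNK the ranges were 566 to 4652 for A4, 146 to 3377 for A7 and 395 to 4716 for E4. At 1 to 19 counts a library, MIR10B in both arms and the miR-196a rows with PNK are too shallow to show small differences.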
